A study of Homo sapiens with 4 samples.

Results

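Fatty acid binding and lipid droplet genes were followed through OVCAR5 ovarian cancer cells in which the transcription factor gene FOXK2 was targeted by a short hairpin RNA. The group holds 9 of the 56655 gene symbols that were counted: the fatty acid binding proteins FABP4, FABP5 and FABP6, the fatty acid transporter CD36, the nuclear receptor gene PPARG, the droplet coat genes PLIN2 and PLIN3, the triglyceride lipase PNPLA2 and its inhibitor HILPDA. These genes were selected by symbol with their counts in these same 4 libraries already known, in particular the unequal FABP4 counts of the replicates. Their levels, fold changes and calls are therefore given as a description, and nothing is read from a test of them.

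OVCAR5 is an established ovarian cancer cell line that the labels give as high grade serous and as coming from ascites. All cells were grown in RPMI medium with 10% fetal bovine serum, at passage 4 to 6, and were stably transduced with lentivirus and selected with puromycin. The control group (shCtrl, n = 2 libraries) carried a nontargeting hairpin in the pLKO.1-puro vector, and the other group (shFOXK2, n = 2 libraries) carried the FOXK2 hairpin named shFOXK2-2 in the study, so the comparison rests on 1 hairpin. The labels number the replicates but do not say whether they came from separate transductions, so p-values measure the spread between these libraries.

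Cells take up long-chain fatty acids through membrane proteins such as CD36, carry them through the cytosol on fatty acid binding proteins, and either burn them or store them as triglyceride in lipid droplets. Perilipins coat the droplet and limit the access of lipases, and PNPLA2 (adipose triglyceride lipase) takes the first step of droplet breakdown, aided by ABHD5 and held back by G0S2 and HILPDA. PPARG binds DNA with a retinoid X receptor and drives FABP4, CD36 and perilipin genes in adipocytes, and FABP4 is best known as an adipocyte, macrophage and capillary endothelial protein.

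Library totals ran from 14284005 to 21950873 counts, so that 3 counts, taken as the floor, equalled 0.134 to 0.211 CPM (counts scaled by library total and TMM factor). Of the 16417 genes with enough counts to test, 48.4% differed between the groups at an adjusted p-value under 0.05 (edgeR's quasi-likelihood test, Benjamini-Hochberg adjustment), 25.7% being higher and 22.7% lower in shFOXK2. The groups did not overlap for 75.4% of tested genes, and shFOXK2 was the group above in 39.2%. FOXK2 itself was counted 1796 and 1499 times in shCtrl and 1086 and 1084 times in shFOXK2, or 86.9 ± 9.1 and 67.9 ± 11.9 CPM (SD, n = 2 each). Its log2 fold change of -0.36 (SE 0.25) did not pass the same test (adjusted p = 0.257). By other measures, quantitative PCR and Western blot, the study reports lower FOXK2 mRNA and protein in OVCAR5 cells carrying a FOXK2 hairpin.

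FABP4 and FABP5 were higher, PLIN3 and PNPLA2 were lower, HILPDA was moderately higher, and PPARG differed little between the groups, while FABP6, CD36 and PLIN2 had too few counts to test. Of the 6 members tested, 3 were higher and 2 lower at an adjusted p-value under 0.05, beside 48.4% of all tested genes. Since the genes were chosen on this contrast, this count is only a description. The groups did not overlap for any of these 6 members, beside 75.4% of all tested genes (39.2% with shFOXK2 above). In bulk RNA, fewer cells expressing a gene and less of its RNA per cell cannot be told apart.

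**Figure D1:**
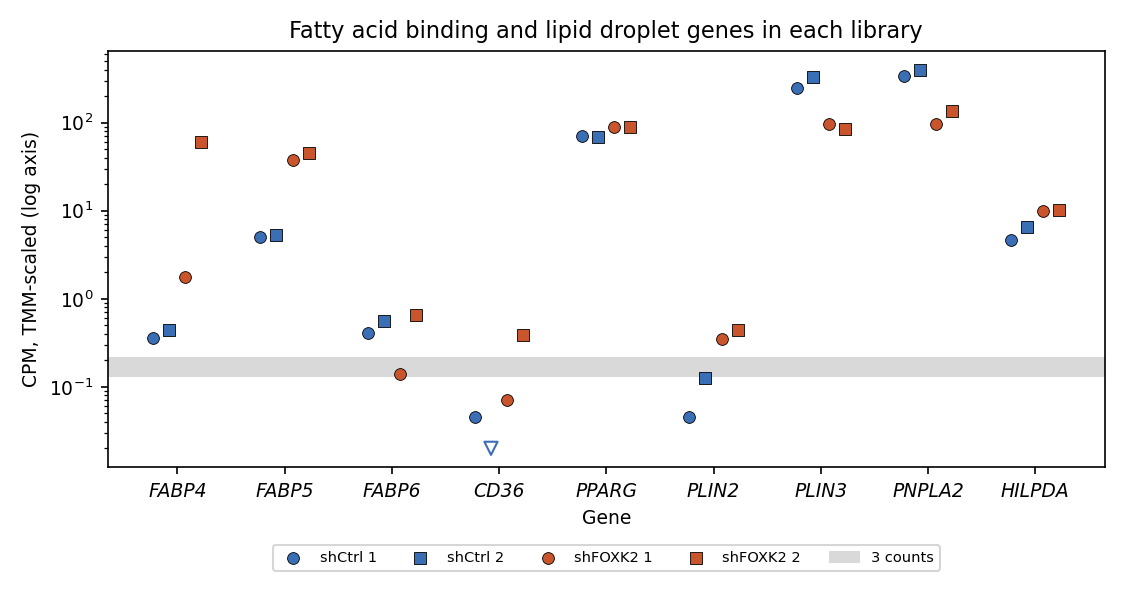
Level of each of the 9 genes in each of the 4 libraries, in TMM-scaled CPM on a log axis, with shCtrl in blue, shFOXK2 in orange, replicate 1 as circles and replicate 2 as squares. The open triangle marks a library with 0 counts and the grey band the level of 3 counts in the 4 libraries. FABP4 is the gene whose shFOXK2 points lie far apart, at 1.76 and 60.9 CPM, whereas both shFOXK2 points lie below both shCtrl points for PLIN3 and PNPLA2.

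Promoter sequence is shown for PLIN3 and PNPLA2, the pair that was lower together, and for PLIN2, the perilipin with counts near the floor. Each line holds the 250 bases before the RefSeq transcription start on build GRCh38.p14, read 5′ to 3′ on the strand of the gene. Capitals mark AGGTCA or its reverse complement TGACCT, the hexamer that PPAR and other nuclear receptors recognise, and ACGTG or its reverse complement CACGT, the core of the hypoxia response element.
PLIN3 (chr19:4867668-4867917, minus strand): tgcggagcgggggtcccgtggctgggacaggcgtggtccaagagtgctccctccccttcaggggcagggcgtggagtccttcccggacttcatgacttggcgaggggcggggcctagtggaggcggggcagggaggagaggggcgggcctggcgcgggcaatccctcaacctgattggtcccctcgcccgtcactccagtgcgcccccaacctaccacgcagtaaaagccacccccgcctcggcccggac
PNPLA2 (chr11:818664-818913, plus strand): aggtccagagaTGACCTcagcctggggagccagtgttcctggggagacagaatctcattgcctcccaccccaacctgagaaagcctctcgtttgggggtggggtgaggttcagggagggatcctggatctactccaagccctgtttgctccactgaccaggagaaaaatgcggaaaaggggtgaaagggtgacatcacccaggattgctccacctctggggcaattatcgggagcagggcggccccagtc
PLIN2 (chr9:19127493-19127742, minus strand): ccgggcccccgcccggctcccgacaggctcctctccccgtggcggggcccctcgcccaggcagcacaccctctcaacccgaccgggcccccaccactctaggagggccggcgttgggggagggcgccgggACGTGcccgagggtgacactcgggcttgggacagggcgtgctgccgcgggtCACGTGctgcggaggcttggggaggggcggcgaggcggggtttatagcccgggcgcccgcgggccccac
Both strands were searched, and positions are counted back from the start, the base before it being -1. The PNPLA2 window held TGACCT at -239, a hexamer found on either strand in 12.1% of 35116 RefSeq windows of the same length. The PLIN2 window held ACGTG at -120 and at -68, the second overlapping its own reverse complement at -69, and 18.5% of windows hold this motif. Neither motif was found in the PLIN3 window. Several windows were searched for PPARG and for CD36, so the shares per window are not a like comparison for these genes. At PPARG the window from chr3:12287118 held AGGTCA and CACGT. The overlapping windows from chr3:12288810 and chr3:12288820 held AGGTCA, and the other PPARG windows held neither motif. The FABP6 window and the CD36 windows held neither motif. The forkhead motif TGTTTAC (reverse complement GTAAACA), present in 2.98% of windows, was in none of the windows searched for PPARG, FABP6, CD36, PLIN2, PNPLA2 and PLIN3. These matches describe the letters of the windows and were not tied to binding.

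PPARG, the nuclear receptor gene among the members, lies at chr3:12287368-12434356 on the plus strand (here and in what follows, gene positions are from GENCODE v44 on build hg38). It was counted 1570 and 1114 times in shCtrl and 1285 and 1613 times in shFOXK2. Scaled to library size this was 69.9 ± 0.692 CPM in shCtrl and 89.5 ± 1.22 CPM in shFOXK2 (SD, n = 2 each). The replicates lay close together and the groups did not overlap, at a fold of 1.28 (log2 fold change 0.36, SE 0.24). PPARG mRNA was thus well above the floor in every library, and it is the tested member that did not pass the threshold. Per kilobase of transcript its level was 39.4 in shCtrl and 50.4 CPM in shFOXK2.

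Among the partners of PPARG more genes fell than rose. Of 16 receptors, coregulators and C/EBP factors listed, 15 were tested, 7 fell, 1 rose and 7 did not pass the test, with a median log2 fold change of -0.52 beside 0.04 over all tested genes. Over all tested genes 22.7% fell and 25.7% rose, the shares to set beside these counts and those of the later lists. PPARA, the fatty acid oxidation receptor of the same family, fell by 2.24 on the log2 scale (SE 0.3, adjusted p = 6.85e-05). The C/EBP factors that precede PPARG in adipocyte differentiation fell too, CEBPB by 2.06 (SE 0.28, adjusted p = 7.98e-05) and CEBPD by 1.73 (SE 0.25, adjusted p = 0.000135) on the log2 scale. RXRA, the DNA binding partner of PPARG, fell by 0.96 on the log2 scale (SE 0.23, adjusted p = 0.00356), from 211 and 226 CPM in shCtrl to 112 and 113 CPM in shFOXK2. The corepressor NCOR1 was the listed gene that rose, by 0.87 on the log2 scale (SE 0.25, adjusted p = 0.012). This call was lost without shCtrl replicate 2 (0.55) or shFOXK2 replicate 2 (0.70), and with an offset for the adenine share of transcripts described further on (0.44).

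Among 11 other target genes of PPAR receptors, 8 were tested, of which 3 fell, 1 rose and 4 did not pass the test. PCK1, an enzyme of glucose and glycerol synthesis, fell from 3.72 and 3.92 CPM to 0.422 and 0.439 CPM (log2 fold change -3.13, SE 0.44, adjusted p = 0.000107). The mitochondrial carrier UCP2 also fell (log2 fold change -1.44, SE 0.34, adjusted p = 0.00342). ACADVL, a mitochondrial dehydrogenase of very long acyl chains, rose by 0.64 on the log2 scale (SE 0.23, adjusted p = 0.0359), a call that was lost with DESeq2 (0.57), with the replicate number as a block (0.65), with no filter on low counts (0.54), and without shCtrl replicate 1 (0.46), shFOXK2 replicate 1 (0.54) or shFOXK2 replicate 2 (0.69).

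CD36 was near the floor. Its 1 and 0 counts in shCtrl and 1 and 7 counts in shFOXK2, from a gene at chr7:80369575-80679277 on the plus strand that overlaps 4 other genes, gave a value of 1 count in both groups. Of the 15 other uptake and activation genes, 11 were tested, 2 fell, 1 rose and 8 did not pass the test, with a median log2 fold change of -0.01. The fatty acid transport protein SLC27A2 fell from 31.3 and 25.6 CPM to 4.71 and 5.77 CPM (log2 fold change -2.44, SE 0.3, adjusted p = 4.19e-05). ACSL1, which activates fatty acids to acyl-CoA, fell by 1.45 on the log2 scale (SE 0.3, adjusted p = 0.00159). CAV1, the coat protein of caveolae, rose from 160 and 144 CPM to 476 and 821 CPM (log2 fold change 2.09, SE 0.28, adjusted p = 7.48e-05).

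FABP4, at chr8:81478419-81483236 on the minus strand, was counted 8 and 7 times in shCtrl, 25 times in shFOXK2 replicate 1 and 1108 times in shFOXK2 replicate 2. These counts equal 0.359, 0.436, 1.76 and 60.9 CPM. All 4 values were above the floor, and both shFOXK2 libraries were above both shCtrl libraries, but the shFOXK2 libraries were further from each other than replicate 1 was from the controls. Replicate 1 was at 4.42-fold and replicate 2 at 153-fold the shCtrl mean of 0.397 ± 0.0548 CPM. The shFOXK2 mean of 31.3 ± 41.8 CPM (SD, n = 2) thus had an SD above the mean itself.

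The 95% exact Poisson interval of FABP4 was 1.14 to 2.59 CPM in shFOXK2 replicate 1 and 57.3 to 64.6 CPM in replicate 2, while the shCtrl intervals spanned 0.155 to 0.707 and 0.175 to 0.898 CPM. The log2 fold change was 6.30 with an SE of 1.18 over all libraries. Dropping shFOXK2 replicate 2 gave 2.11 and dropping shFOXK2 replicate 1 gave 7.23, so the size of the difference rests on replicate 2 while its direction was the same in either library.

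The replicate difference of FABP4 was compared with that of every tested gene. That difference was known when FABP4 was chosen, so its rank is only a description. On the log2 CPM scale shFOXK2 replicate 2 exceeded replicate 1 by 5.03 (34.6-fold in CPM), the largest absolute difference among the 16417 genes. The median absolute difference was 0.29 in both groups, and the 95th percentile was 1.13 in both groups. The shFOXK2 replicates differed by more than 3 for 10 genes and the shCtrl replicates for 1 gene. In 9 of those 10 genes replicate 2 was the higher, and in 8 of these 9 replicate 1 lay below both shCtrl libraries. FABP4 was the gene among the 9 with both shFOXK2 libraries above both controls. Testing required enough counts in at least 2 libraries, so a gene with enough counts in shFOXK2 replicate 2 alone was not tested. FABP4 met this through its shFOXK2 counts of 25 and 1108, its shCtrl counts of 8 and 7 being too low. The counts of 9 and 8 therefore hold only for genes that passed this filter. The other tested members differed little between the shFOXK2 replicates: FABP5 by 0.28, PPARG by -0.03, PLIN3 by -0.17, PNPLA2 by 0.49 and HILPDA by 0.05 (replicate 2 minus replicate 1, log2 CPM).

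**Figure D2:**
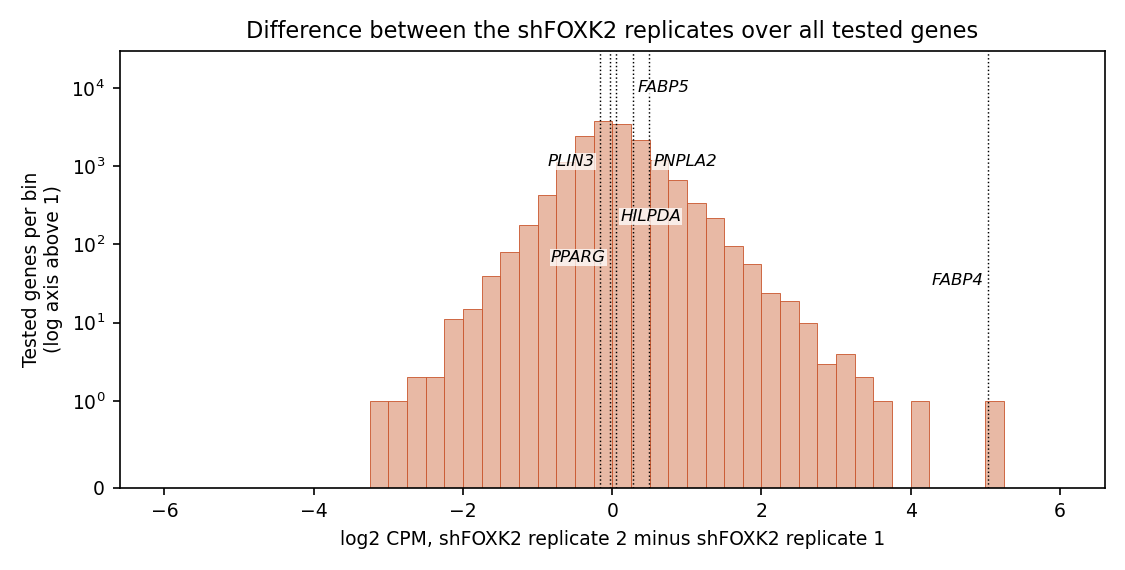
Histogram over the 16417 tested genes of the difference between the shFOXK2 replicates (replicate 2 minus replicate 1, log2 CPM), with genes per bin on an axis that is logarithmic above 1 and dotted lines at the 6 tested members. FABP4, chosen with this difference known, sits alone at 5.03, and the other 5 members lie between -0.17 and 0.49.

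The genes with a profile most like FABP4 were ranked by the Euclidean distance between log2 CPM values centred on each gene's mean, over the 4 libraries and the 14192 other genes whose mean log2 CPM was 0 or more. The nearest were ALDH3A1, HMGN5, TNFRSF13C, CALB2 and ADH1C, at distances of 2.37, 2.5, 2.71, 2.73 and 2.78 on the log2 scale. ALDH3A1, an aldehyde dehydrogenase, was counted 21 and 19 times in shCtrl and 41 and 349 times in shFOXK2. CALB2, a calcium binding protein, was counted 79 and 52 times in shCtrl and 385 and 1252 times in shFOXK2. ADH1C, an alcohol dehydrogenase, was counted 18, 21, 51 and 260 times in the same order. HMGN5, a nucleosome binding protein, had 2, 2, 63 and 263 counts, and TNFRSF13C, a B cell receptor for a survival factor, had 4, 7, 26 and 113. All 5 genes were highest in shFOXK2 replicate 2, second highest in shFOXK2 replicate 1 and low in shCtrl. This order follows from choosing them by likeness to FABP4 and is no separate result. The likeness was loose: in shFOXK2 replicate 1 HMGN5 was at 41.3-fold its shCtrl mean, where FABP4 was at 4.42-fold.

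The genes around FABP4 were also examined. Within 1 Mb of FABP4 lie 11 other protein-coding genes besides FABP5, of which 8 were tested. Of these, 6 rose, beside 25.7% of all tested genes, and the median log2 fold change was 1.71 beside 0.04 over all tested genes. PAG1 rose by 2.70 (SE 0.47, adjusted p = 0.000426) and IMPA1 by 1.71 (SE 0.28, adjusted p = 0.000313) on the log2 scale, genes of membrane signalling and of inositol metabolism respectively. PAG1 was at 3.94 and 1.25 CPM in shCtrl, and its log2 fold change was 3.76 without shCtrl replicate 1 and 2.06 without shCtrl replicate 2. The shFOXK2 replicates of the 8 tested neighbours differed by -0.80 to 0.94 (log2 CPM). The closest relatives in the cluster were at or near 0 counts: PMP2, which encodes FABP8 of myelin, had 0, 0, 0 and 1 counts, and FABP9 and FABP12 had 0 counts in all 4 libraries. A count of 0 allows up to the floor of 0.134 to 0.211 CPM.

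FABP5, the epidermal fatty acid binding protein, lies in the same cluster at chr8:81280536-81284777 on the plus strand. It was counted 112 and 84 times in shCtrl and 534 and 828 times in shFOXK2, that is 5.02, 5.23, 37.5 and 45.5 CPM. Both shFOXK2 libraries were well above both shCtrl libraries, and replicates of each group were close. The means were 5.13 ± 0.15 and 41.5 ± 5.62 CPM (SD, n = 2 each), an 8.1-fold difference (log2 fold change 3.02, SE 0.29). Per kilobase of transcript FABP5 was at 7.58 ± 0.222 CPM in shCtrl, above FABP4 at 0.436 ± 0.0601. In shFOXK2 the levels were 61.4 ± 8.31 and 34.4 ± 45.9 CPM per kilobase, a difference smaller than the SD of FABP4. FABP5 has many processed pseudogenes, and reads that match several places are dropped in the usual counting. The 13 FABP5 pseudogenes in the tables summed to 0, 1, 4 and 5 counts.

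FABP6, the ileal bile acid binding protein at chr5:160187367-160238735 on the plus strand, was sparse, with 9 counts in each shCtrl library and 2 and 12 counts in the shFOXK2 libraries. The groups overlapped at 0.403, 0.561, 0.141 and 0.659 CPM. Its receptor regulator NR1H4 (the farnesoid X receptor) was as sparse, with 4, 2, 1 and 20 counts. Of the 6 bile acid genes listed, 2 were tested, and FGF19, the ileal bile acid hormone, fell from 97 and 90 counts to 4 and 6 (log2 fold change -3.98, SE 0.47, adjusted p = 3.03e-05).

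The intracellular lipid binding family has 13 further genes, most of them sparse. Of 5 tested, 3 fell, none rose (0 at an unadjusted p under 0.05 in edgeR and 0 with DESeq2) and 2 did not pass the test, with a median log2 fold change of -0.81. The retinoid binding proteins RBP7 (log2 fold change -1.89, SE 0.41, adjusted p = 0.00211) and CRABP2 (-1.40, SE 0.31, adjusted p = 0.00245) fell. FABP3, the heart form, had 16, 7, 18 and 18 counts (log2 fold change 0.91, SE 0.48, adjusted p = 0.133). FABP1 and FABP2, the liver and intestinal forms, were too sparse to test, with 4, 0, 3 and 29 counts and with 0, 0, 0 and 4 counts. These and NR1H4, like CD36, had their highest count in shFOXK2 replicate 2. That library also had the most genes with any count, 30717. The shCtrl libraries had 25682 and 23724 and shFOXK2 replicate 1 had 26780, so high sparse counts there are not particular to these genes.

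Among the droplet coat genes, PLIN3 was the abundant perilipin and PLIN2 had counts near the floor. PLIN3 (TIP47), at chr19:4838341-4867694 on the minus strand, coats nascent droplets. It was counted 5465 and 5287 times in shCtrl and 1375 and 1560 times in shFOXK2, or 245, 329, 96.7 and 85.7 CPM. Both shFOXK2 libraries lay far below both controls, with means of 287 ± 59.7 and 91.2 ± 7.75 CPM (SD, n = 2 each). The shCtrl mean was 3.15-fold the shFOXK2 mean (log2 fold change -1.65, SE 0.25), and per kilobase the level went from 129 ± 26.7 to 40.9 ± 3.47 CPM.

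PLIN2 (adipophilin), at chr9:19108375-19149290 on the minus strand, is the droplet coat protein of most cells that are not adipocytes. It had 1 and 2 counts in shCtrl and 5 and 8 counts in shFOXK2, or 0.0448, 0.125, 0.352 and 0.439 CPM. The shCtrl values were under the floor and the shFOXK2 values above it. GENCODE v44 places no other gene over PLIN2, and its neighbours were counted: RRAGA had 1405, 1199, 534 and 604 counts and HAUS6 had 137, 60, 408 and 525. The annotation used for the counting is not given, and counts of neighbours do not show whether reads over PLIN2 were lost. The reason for the low PLIN2 count was not tested.

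Of the other 12 droplet coat genes 7 were tested and none passed the test in edgeR, 1 having an unadjusted p under 0.05 (AUP1, log2 fold change 0.59), and DESeq2 called 0. Their median log2 fold change was -0.19. PLIN4 had 323, 229, 96 and 221 counts (log2 fold change -0.60, SE 0.33, adjusted p = 0.149). PLIN5, the perilipin of oxidative tissue, had 47, 42, 10 and 60 counts (log2 fold change -0.19, SE 0.53, adjusted p = 0.788). For both genes shFOXK2 replicate 1 was the lowest library. Leaving out shFOXK2 replicate 2 gave -1.12 for PLIN4 and -1.76 for PLIN5, whereas leaving out shFOXK2 replicate 1 turned PLIN5 to 0.46. The adjusted p-values of the first pair, 0.0197 and 0.00524, assume that the lone shFOXK2 library varies like the shCtrl libraries.

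PNPLA2, at chr11:818914-825573 on the plus strand, was counted 7594 and 6419 times in shCtrl and 1387 and 2501 times in shFOXK2. In CPM these were 340, 400, 97.5 and 137. As for PLIN3, the highest shFOXK2 library lay far below the lowest control. The means were 370 ± 42.1 and 117 ± 28.2 CPM (SD, n = 2 each), 3.15-fold apart with shCtrl the higher (log2 fold change -1.66, SE 0.25). Per kilobase PNPLA2 was at 153 ± 17.4 CPM in shCtrl, next to PLIN3 at 129 ± 26.7, the difference between the pair being smaller than the PLIN3 SD, and both were above all other members in that group.

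The inhibitor HILPDA, at chr7:128455849-128458418 on the plus strand, was at a lower level. It had 103 and 104 counts in shCtrl and 141 and 187 counts in shFOXK2, or 4.62, 6.48, 9.91 and 10.3 CPM. The groups did not overlap, with means of 5.55 ± 1.32 and 10.1 ± 0.255 CPM (SD, n = 2 each), a fold of 1.82 (log2 fold change 0.87, SE 0.32). HILPDA was thus above its control level in the libraries where PNPLA2, the enzyme it inhibits, was below.

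The other regulators of the lipase did not pass the test. The activator ABHD5 differed by 0.64 on the log2 scale (SE 0.37, adjusted p = 0.165), which turned to -0.34 with the adenine offset and was 1.01 without shFOXK2 replicate 2 (adjusted p = 0.0208). G0S2, the other inhibitor, had 204, 174, 108 and 44 counts (log2 fold change -1.01, SE 0.44, adjusted p = 0.0711). It passed the test with the replicate number as a block (-1.17), and gave -1.16 without shCtrl replicate 1 and -2.07 without shFOXK2 replicate 1 (adjusted p = 0.0224 and 1.86e-05), fits in which 1 arm holds a lone library. Of the 10 lipolysis genes listed, 8 were tested and 1 fell, the lysosomal lipase LIPA (log2 fold change -1.28, SE 0.25, adjusted p = 0.000948).

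HILPDA is a textbook target of hypoxia inducible factors, and 10 other genes of that response were listed with it. All 10 were tested, 7 fell, none rose (0 at an unadjusted p under 0.05 in edgeR and 0 with DESeq2) and 3 did not pass the test, with a median log2 fold change of -1.26. HIF1A, the oxygen regulated subunit, fell by 1.38 on the log2 scale (SE 0.3, adjusted p = 0.00215). HIF1A was at 632 and 323 CPM in shCtrl and at 205 and 162 CPM in shFOXK2. Its log2 fold change was -0.85 without shCtrl replicate 1 and -1.86 without shCtrl replicate 2. VEGFA fell by 2.06 (SE 0.31, adjusted p = 0.000177), NDRG1 by 2.14 (SE 0.27, adjusted p = 4.24e-05) and CA9 by 2.71 (SE 0.45, adjusted p = 0.000317) on the same scale. HILPDA had a positive log2 fold change, as had BNIP3, a mitophagy receptor, at 0.74 (SE 0.42, adjusted p = 0.158). BNIP3 was sparse, with 25 and 17 counts in shCtrl and 22 and 38 counts in shFOXK2.

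Among genes that make triglyceride and form droplets more fell than rose. Of 23 listed, 17 were tested, 9 fell, 1 rose and 7 did not pass the test, with a median log2 fold change of -0.74. The acyltransferase AGPAT3 fell from 170 and 182 CPM to 46.8 and 44.6 CPM (log2 fold change -1.95, SE 0.24, adjusted p = 3.82e-05), FITM2, which helps droplets bud from the endoplasmic reticulum, fell by 2.12 (SE 0.28, adjusted p = 5.86e-05) and the phosphatidate phosphatase LPIN2 by 1.80 (SE 0.25, adjusted p = 9.42e-05) on the log2 scale. GPAT3, which starts the pathway by acylating glycerol phosphate, rose from 31.5 and 37.6 CPM to 125 and 88.1 CPM (log2 fold change 1.63, SE 0.27, adjusted p = 0.000318). Of the enzymes of the last step, DGAT2 fell by 1.01 on the log2 scale (SE 0.35, adjusted p = 0.0274) and DGAT1 did not pass the test (57.6, 73.6, 75.9 and 59.4 CPM). The DGAT2 call was lost with the adenine offset (-0.68) and without shCtrl replicate 2 (-0.98) or shFOXK2 replicate 2 (-0.74). Over all 9 lists, 116 genes were named and 83 tested, of which 33 fell, 4 rose and 46 did not pass the test, so that 44.6% were called beside 48.4% of all tested genes. By direction, 22.7% of all tested genes fell and 25.7% rose.

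**Figure D3:**
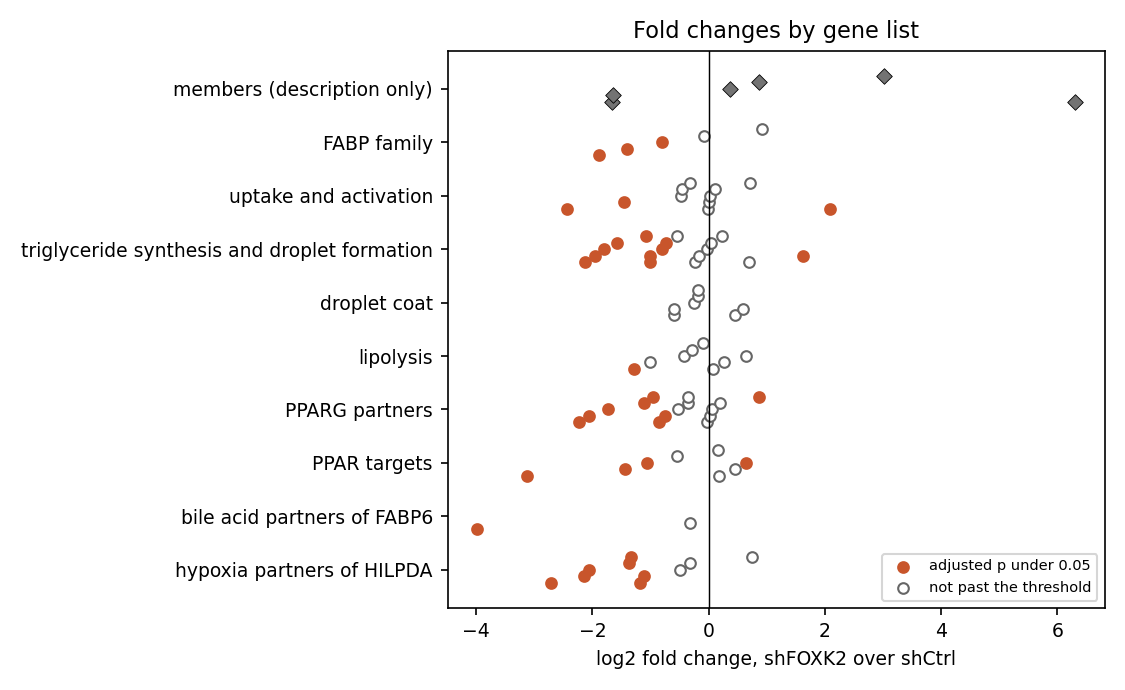
Log2 fold change (shFOXK2 over shCtrl, n = 2 libraries each) of the 6 tested members, as diamonds without a test, and of the 83 tested genes of 9 lists, filled where the adjusted p-value was under 0.05 and open where it was not. Filled points to the left of 0 outnumber those to the right by 33 to 4, and the diamonds of FABP4 and FABP5 lie furthest to the right at 6.30 and 3.02.

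Marker genes of cell types that carry FABP4 were read in the same libraries. Adipocyte markers (8 genes, 2 tested) summed to 18.2 and 23 CPM in shCtrl and 18.2 and 14.3 CPM in shFOXK2, and the defining adipocyte hormones were at or near 0, ADIPOQ with 0, 0, 1 and 0 counts and LEP with 0, 0, 0 and 2. Macrophage markers (10 genes, 2 tested) summed to 18.7 and 22.9 CPM in shCtrl and 10.1 and 10.7 CPM in shFOXK2, with AIF1, CD163 and TYROBP at 0 in all libraries. Endothelial markers (9 genes, 5 tested) summed to 30.3 and 31.8 CPM in shCtrl and 20.5 and 24.8 CPM in shFOXK2. CDH5, the endothelial cadherin, had 76 and 33 counts in shCtrl and 0 in either shFOXK2 library. Few genes carried these sums, mainly CFD and LIPE for adipocytes, CD14 for macrophages and ESAM for endothelium. In shFOXK2 replicate 2, where FABP4 was highest, each sum was below both controls, but some markers were highest there: PLIN1 had 2, 5, 5 and 11 counts, CIDEC 2, 1, 4 and 7, FCER1G 2, 0, 2 and 8, and ESAM 14.3, 17.8, 17.8 and 19.7 CPM. Their part in the FABP4 values was not tested.

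The label of the cells was read against 9 epithelial and ovarian markers, 8 of them tested. They summed to 3630 and 4820 CPM in shCtrl and 3450 and 4660 CPM in shFOXK2, most of it from the keratins KRT8 and KRT18. Of the 8, 3 fell, 1 rose and 4 did not pass the test. MSLN, an ovarian marker, was the gene that rose (log2 fold change 1.10, SE 0.34, adjusted p = 0.0151). This call was lost with DESeq2 (1.03) and without shCtrl replicate 2 (1.01). EPCAM did not pass the test (log2 fold change -0.25, SE 0.24, adjusted p = 0.393). The epithelial cadherin CDH1 fell from 459 and 260 counts to 13 and 24 (log2 fold change -4.02, SE 0.37, adjusted p = 5.12e-06), and MUC16, which carries the tumour antigen CA125, fell from 397 and 145 counts to 0 and 8 (-5.76, SE 0.66, adjusted p = 2.45e-05). With shFOXK2 replicate 2 left out, the remaining shFOXK2 library had 0 counts of MUC16 and its fitted value of -10.89 is no bound. PAX8 had 351, 335, 156 and 162 counts, whereas WT1, a usual marker of the high grade serous type, had 2, 1, 0 and 1.

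Base composition moved with the fold changes. The share of adenine in the canonical transcript was 32.7% for FABP4, 31.8% for FABP5 and 29.8% for PPARG, and 22.8%, 22.4% and 17.3% for PLIN3, HILPDA and PNPLA2. Tested genes within 1 percentage point of these shares had median log2 fold changes of 0.98, 0.68 and 0.25, and of -0.34, -0.31 and -0.27. With a smooth offset on this share the member values were 5.21 for FABP4, 2.19 for FABP5, 0.05 for PPARG, -1.30 for PLIN3, 1.22 for HILPDA and -1.35 for PNPLA2. All 6 kept their direction, and the value of PPARG came close to 0. The 8 tested neighbours of FABP4 had adenine shares of 28.9% to 33.9%, and with the offset 5 of them were higher at a median log2 fold change of 1.10. The part of base composition in these results was not tested.

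**Figure D4:**
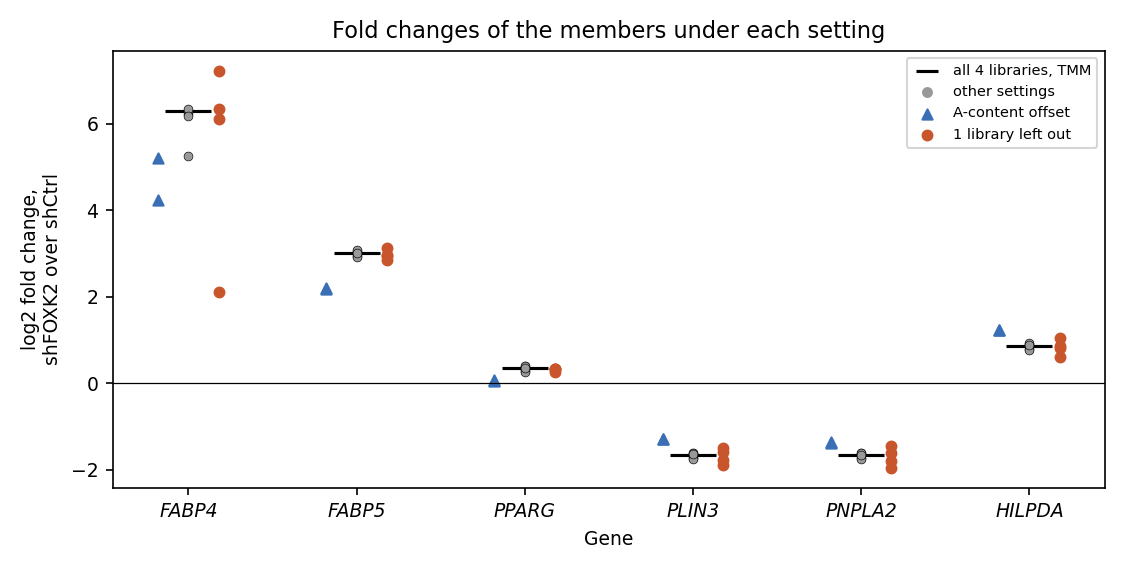
Log2 fold change (shFOXK2 over shCtrl) of the 6 tested members from all 4 libraries with TMM scaling (black bars), under other settings (grey), with an offset on transcript A content (blue triangles) and with 1 library left out (orange). FABP4 has the widest range, from 2.11 to 7.23 when a library is left out, and every value stays on its side of 0.

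The order of the members by level, per kilobase of transcript, differed between the groups. In shCtrl PNPLA2 (153) and PLIN3 (129) stood above PPARG (39.4), FABP5 (7.58), HILPDA (4.07), FABP6 (0.972), FABP4 (0.436), PLIN2 (0.0447) and CD36 (0.00487 CPM per kilobase). In shFOXK2 FABP5 (61.4) stood above PPARG (50.4), PNPLA2 (48.6), PLIN3 (40.9), FABP4 (34.4), HILPDA (7.40), FABP6 (0.806), PLIN2 (0.208) and CD36 (0.0495 CPM per kilobase). PNPLA2 did not differ from its neighbours PPARG and PLIN3 in shFOXK2 beyond its SD of 11.7, and the SD of 45.9 of FABP4 spanned its neighbours. PNPLA2 and PLIN3, which led in shCtrl, thus stood below FABP5 in shFOXK2.

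Several members share their position with other genes, and the strand setting of the counting is not given in the sources used here. All members except PLIN2 overlap at least 1 other annotated gene, which for FABP4 is the long noncoding gene ENSG00000253859, for FABP5 LNMICC, for FABP6 the antisense FABP6-AS1, for PPARG the pseudogene PFDN1P1, for PLIN3 ENSG00000267484 and for PNPLA2 ENSG00000255108. CD36 overlaps 4 genes, and HILPDA overlaps ENSG00000273184 and the antisense HILPDA-AS1. Reads from the overlapping parts could have been given to either gene or to neither.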

How the data were processed

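Polyadenylated RNA was sequenced from 2 shCtrl and 2 shFOXK2 libraries of OVCAR5 cells. The authors aligned single-end reads with STAR (2.5.2 in the submitters' processing notes) to GRCh38 and deposited raw counts per gene symbol from HTSeq, 1 table for each library; the annotation and strand setting are not given in the sources used here. Groups and replicate numbers came from the titles. Genes were filtered with filterByExpr, scaled by TMM and compared with the 2-sided quasi-likelihood test of edgeR 4.0.16 (R 4.3.3), with Benjamini-Hochberg adjustment over 16417 genes and a threshold of 0.05. The SE was the absolute log2 fold change over the square root of F. An exact permutation test of 2 against 2 libraries cannot go below p = 0.333, so adjusted p-values rest on variance shared between genes. Log2 CPM used a prior count of 2. DESeq2 1.42.0, a lowess offset on transcript adenine share (span 0.2), other scalings and filters, a replicate block and leaving out libraries were alternatives. Positions, lengths and base shares came from GENCODE v44 canonical transcripts, with 36879 of 56655 symbols matched (65.1%), and promoters from the RefSeq table of GRCh38.p14.

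The members, the gene lists and the tests were chosen with earlier results of these data known. Named genes were the 9 members, the called genes of each list with the smallest adjusted p (up to 4), direct partners of a member (NR1H4, HIF1A, ABHD5, G0S2, RXRA), FOXK2, the 5 genes nearest FABP4, and marker and pseudogene groups. Some genes that met this rule are not reported here. Other genes named, and values given without a call, were chosen after their values were seen. Intervals and floors cover counting error only, since reads amplified without molecular identifiers are not independent molecules.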

Additional observations from a re-analysis of the deposited data

How the results depend on the processing

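With 2 libraries in each group and no molecular identifiers, low counts kept FABP6, CD36 and PLIN2 below the filter, and no fold change is given for them. Genes called numbered 7940, and 6008 (at least 10 counts in every library) to 9207 (no filter) under the other settings, 6903 with DESeq2. Listed genes called numbered 37, and 31 to 40. Without 1 library in turn, where the lone library of an arm is assumed to vary like the other group, these counts ran from 6771 to 7775 and from 35 to 37. Replicate numbers are shared between groups but nothing says what they share. Deviations of same-numbered libraries correlated at -0.113 over 2 pairs, too few to tell whether the numbers mark a shared preparation. The replicate block called 7270 genes, 7133 of them called without it, and 35 listed genes. A crossed pairing, chosen after seeing the data, called 8350 and 40.

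The log2 fold changes of the members kept their sign under every setting that gave a value. FABP4 gave none with at least 10 counts in every library, and 5.26 with the block. FABP5 moved from 3.02 to 2.19 with an adenine offset and 2.20 with both offset and block. PPARG, at 0.36, was 0.28 with DESeq2, 0.34 with DESeq2 size factors, 0.39 with library size alone, 0.25 with no filter, 0.40 with at least 10 counts, 0.05 with the offset and 0.07 with the offset and the block. The offset, without and with the block, gave -1.30 and -1.30 for PLIN3 and 1.22 and 1.22 for HILPDA, and -1.35 without it for PNPLA2. Leaving out a library gave 2.11 (without shFOXK2 replicate 2) to 7.23 (without shFOXK2 replicate 1) for FABP4, 2.84 to 3.12 for FABP5, 0.27 to 0.34 for PPARG, -1.89 to -1.5 for PLIN3, -1.96 to -1.46 for PNPLA2 and 0.60 to 1.05 for HILPDA. ABHD5 reversed to -0.34 with the offset and -0.39 with the offset and the block. PLIN5, at -0.19, turned to 0.21 with the offset, and leaving out a library gave -1.76 (without shFOXK2 replicate 2) to 0.46 (without shFOXK2 replicate 1). Of the values of other genes followed with no library left out, 369 stayed on their side of the threshold, 15 lost a call (ACADVL, NCOR1, DGAT2, PAX8, CFD and MSLN among them) and 4 gained one, all for G0S2. The offset shifted the median of all tested genes by 0.17 on the log2 scale. The cause was not tested.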
